A study of Arabidopsis thaliana with 12 samples.

Results

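Transcript levels in aig2abc pad4 shoots were compared with those in aig2abc shoots of Arabidopsis thaliana, which asks how far the transcript state of aig2abc plants depends on PAD4. The comparison was made by 3′ RNA-seq, an assay that counts mRNAs near their 3′ ends, over all genes with enough counts. It used 6 of the 12 libraries of the series, 3 from aig2abc pad4 and 3 from aig2abc, chosen by their genotype labels. The remaining libraries, 3 from pad4 and 3 from the wild type Col-0, gave the effect of the pad4 mutation in plants without aig2abc. RNA came from whole shoots of 2-week-old plants kept at 22 °C, 50% humidity and constant light of 100 µmol per square metre and second. Both groups compared carry aig2abc, a mutant of the 3 neighbouring genes AIG2A, AIG2B and AIG2C, and they differ in the pad4 mutation. The labels describe no lesion and do not say if the 3 libraries of a genotype are from plants grown apart. The p-values therefore reflect the variation among these libraries alone, and that variation may be technical.

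PAD4 encodes a lipase-like protein that works with EDS1 in plant immunity. The pair sits downstream of intracellular immune receptors and promotes the synthesis of salicylic acid, the hormone that switches on pathogenesis-related genes such as PR1. Salicylic acid signalling is known to oppose the branch of jasmonate and ethylene signalling that induces plant defensins. AIG2 proteins belong to a family first named for genes induced by bacterial avirulence.

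In aig2abc pad4, 1924 genes (12.8%) rose and 1737 (11.5%) fell relative to aig2abc among 15082 tested, at a Benjamini-Hochberg adjusted p under 0.05 in the quasi-likelihood test of edgeR. Scaling to total counts in place of TMM factors gave 2677 higher and 1237 lower, and moved the median log2 change of all genes to 0.31, against 0.08 with TMM. The aig2abc pad4 libraries held 5542138 to 8330632 counts, while the aig2abc libraries held 584342 to 3005199. Replicates of the other 3 genotypes, 9 libraries in all, varied along 1 shared axis, the first principal component of their deviations from group means, which held 52.5% of that variance. On this replicate axis aig2abc pad4 scored 57.6, 47.4 and -39.4, and aig2abc scored -73.7, -83.5 and -60.8. Replicate 3 of aig2abc pad4 thus lay nearest to aig2abc, and it was the library nearest to the aig2abc mean for 88.6% of the called genes and for 63.8% of all genes tested. With the axis score added as a covariate, 197 genes (1.31%) were higher and 128 (0.849%) lower (2.15% in either direction), of which 174 and 105 were also called without it. Thinning every library to 584342 counts, the total of the shallowest, left 6152 genes tested, of which 1117 were higher and 1040 lower. With the covariate, the log2 change kept its sign in 96.9% of the higher and 98.1% of the lower genes. Genotype and axis cannot be told apart in full, because the scores of the groups do not overlap, so both fits are given below, the second called the axis-adjusted fit. Counts of calls also moved by over 1.5 times without 1 library. Omitting aig2abc replicate 1, 2 or 3 left 1096, 1216 or 921 higher genes, and omitting aig2abc pad4 replicate 1 or 2 left 935 or 972. The lower genes numbered 662, 1069 or 961 on omission of aig2abc replicate 1, 2 or 3, and 488, 455 or 2709 on omission of aig2abc pad4 replicate 1, 2 or 3.

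**Figure D1:**
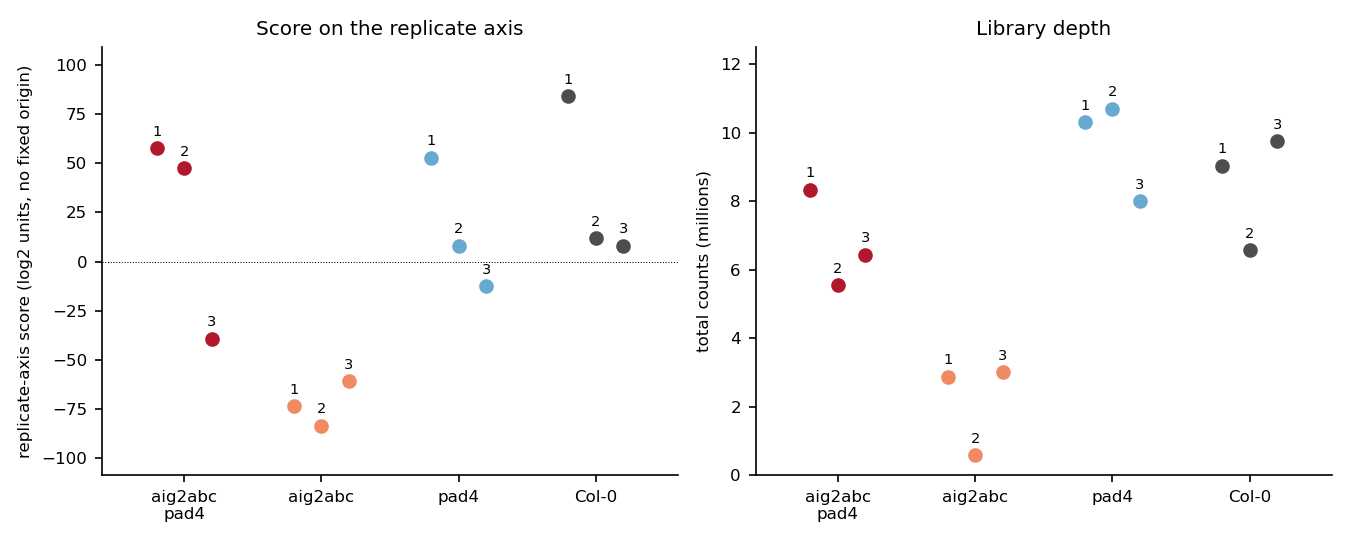
Score on the replicate axis (left; log2 units, dotted line at 0) and total counts (right) of each library, grouped as aig2abc pad4, aig2abc, pad4 and Col-0, with the replicate number above each point. The aig2abc libraries have the 3 lowest axis scores and the 3 lowest totals, and aig2abc pad4 replicate 3, at -39.4, is the next lowest on the axis.

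Markers of tissues other than the shoot were low in both groups. The 7 seed and embryo markers had 0 counts in all 6 libraries. The 11 root markers summed to 1.36 to 2.47 CPM (counts scaled to a common library size with TMM factors) in aig2abc pad4 and 3.34 to 5.79 CPM in aig2abc, and 5 of them had 0 counts in aig2abc pad4 and 5, not all the same ones, in aig2abc. Mesophyll markers summed to 13657 to 16528 CPM in aig2abc pad4 and 10286 to 11758 CPM in aig2abc. In bulk shoots, fewer cells of a type and less RNA per cell cannot be told apart. In aig2abc replicate 2, the shallowest library, 1 count is 1.93 CPM, so low CPM values of that library rest on few counts.

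PAD4 transcripts were at 5.1, 8.14 and 5.92 CPM in aig2abc pad4, against 56.7, 42.5 and 51.2 CPM in aig2abc. The groups did not overlap, and the log2 change was -3.0 ± 0.31 (SE; edgeR quasi-likelihood adjusted p = 0.000178, adjusted by Benjamini-Hochberg over all genes as for every adjusted p that follows). This call held under each of the 17 other settings it was tested in, with log2 changes of -3.13 to -2.55. AIG2C was nearly absent from both groups, with 5, 2 and 2 counts in aig2abc pad4 and 4, 0 and 4 counts in aig2abc, against 33.1 to 43.9 CPM in pad4 and 26.4 to 55.9 CPM in Col-0.

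Transcripts of the other AIG2 genes were still counted and moved in opposite directions. AIG2A was at 209, 227 and 209 CPM in aig2abc pad4, against 109, 77.2 and 85 CPM in aig2abc, a rise of 1.24 ± 0.22 on the log2 scale (edgeR adjusted p = 0.00269) whose call held under the same 17 settings. AIG2B was at 84.5, 125 and 353 CPM in aig2abc pad4, against 575, 838 and 714 CPM in aig2abc, a log2 change of -1.92 ± 0.44 (edgeR adjusted p = 0.00775). The AIG2B call was lost in the axis-adjusted fit (-0.62, adjusted p = 0.255). Over the 6 relatives of AIG1 and AIG2 and gamma-glutamyl cyclotransferases tested, 3 fell and 1 rose, against 11.5% and 12.8% of all genes. Their median was -1.79, and the axis-adjusted fit called 1 in each direction. The mutated genes AIG2A, AIG2B and AIG2C are among the 6, so the median includes them and the nearly absent AIG2C. The AIG2 genes are related copies that may share reads, and a 3′ tag outside a lesion says nothing of the lesion.

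Salicylic acid genes were lower on balance in aig2abc pad4, while PR1, the marker gene of this hormone, did not pass the test. Of 27 members tested, of 30 on the list of salicylic acid synthesis and signalling, 9 fell and 0 rose, where 11.5% of all genes fell and 12.8% rose, with a median log2 change of -0.64 against 0.08 over all genes. PAD4, the mutated gene, is 1 of the 9. In the axis-adjusted fit 4 fell, and leaving out a library gave 6 to 9, with 6 without aig2abc replicate 3.

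At the head of the pathway, ICS1, the isochorismate synthase that makes the precursor of salicylic acid, was at 11.3, 14.2 and 25 CPM in aig2abc pad4, against 83.8, 59.8 and 89 CPM in aig2abc. All 3 aig2abc pad4 libraries were below all 3 aig2abc libraries, and the log2 change was -2.24 ± 0.35 (edgeR adjusted p = 0.00158). SARD1, a transcription factor that activates ICS1, was at 2.5, 4.37 and 4.6 CPM in aig2abc pad4, against 22.6, 7.72 and 30.9 CPM in aig2abc, a log2 change of -2.57 ± 0.40 (edgeR adjusted p = 0.00158). Its relative CBP60G, at 5.08 ± 0.767 CPM in aig2abc pad4 and 9.54 ± 1.28 CPM in aig2abc (SD, n = 3 each), did not overlap between the groups but did not pass the test (edgeR adjusted p = 0.0861). ICS1 and SARD1 kept their calls in the axis-adjusted fit, at -1.33 and -2.08.

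Among the outputs of the pathway PR2, which encodes a beta-1,3-glucanase, fell, whereas PR1 did not pass the test. PR2 was at 64.4, 75.2 and 67.1 CPM in aig2abc pad4, against 390.0, 351 and 372 CPM in aig2abc, a log2 change of -2.43 ± 0.35 (edgeR adjusted p = 0.00117), and it kept its call in the axis-adjusted fit at -1.89. PR1 was at 259, 263 and 136 CPM in aig2abc pad4, against 358, 253 and 355 CPM in aig2abc. These ranges overlapped, and the log2 change of -0.56 ± 0.32 did not pass (edgeR adjusted p = 0.208). PR5, a thaumatin-like protein, averaged 113 ± 19.9 CPM in aig2abc pad4 and 166 ± 53.4 CPM in aig2abc (SD, n = 3 each) and did not pass either (edgeR adjusted p = 0.252). WRKY70, a transcription factor between the salicylic acid and jasmonate pathways, averaged 44.5 ± 14.3 CPM in aig2abc pad4 and 38.3 ± 8.19 CPM in aig2abc (edgeR adjusted p = 0.713).

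The remaining 5 called members were named after their values were seen. The transcription factors WRKY46, WRKY53 and WRKY18 changed by -2.60, -1.68 and -1.63 on the log2 scale, and SAG101, a partner of EDS1 related to PAD4, by -1.22. WRKY62 had 3 counts over the aig2abc pad4 libraries and 21 over the aig2abc libraries. Scaled to library sizes with TMM factors, this is a level 25.8 times lower (exact 95% counting interval 7.71 to 135). The calls of WRKY53 and WRKY18 were lost without aig2abc replicate 3 or aig2abc pad4 replicate 2, and that of SAG101 without aig2abc replicate 1 or 3 or aig2abc pad4 replicate 1 or 2, with a highest adjusted p of 0.124, for WRKY18, by edgeR. All 5 were lost in the axis-adjusted fit.

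The list of salicylic acid turnover and pipecolic acid genes had 6 of 13 members tested, of which 1 fell and 0 rose. Over all genes 11.5% fell and 12.8% rose, so the share of the list that fell is near that of all genes. The member that fell was DMR6, the hydroxylase that breaks down salicylic acid, at 52.9, 58.6 and 59.2 CPM in aig2abc pad4 and 234, 152 and 162 CPM in aig2abc. Its log2 change of -1.69 ± 0.32 (edgeR adjusted p = 0.00322) was -0.99 and not called in the axis-adjusted fit. ALD1 and FMO1, which make pipecolic acid and its active form, were too low to be tested, with at most 2.95 CPM in any of the 6 libraries.

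**Figure D2:**
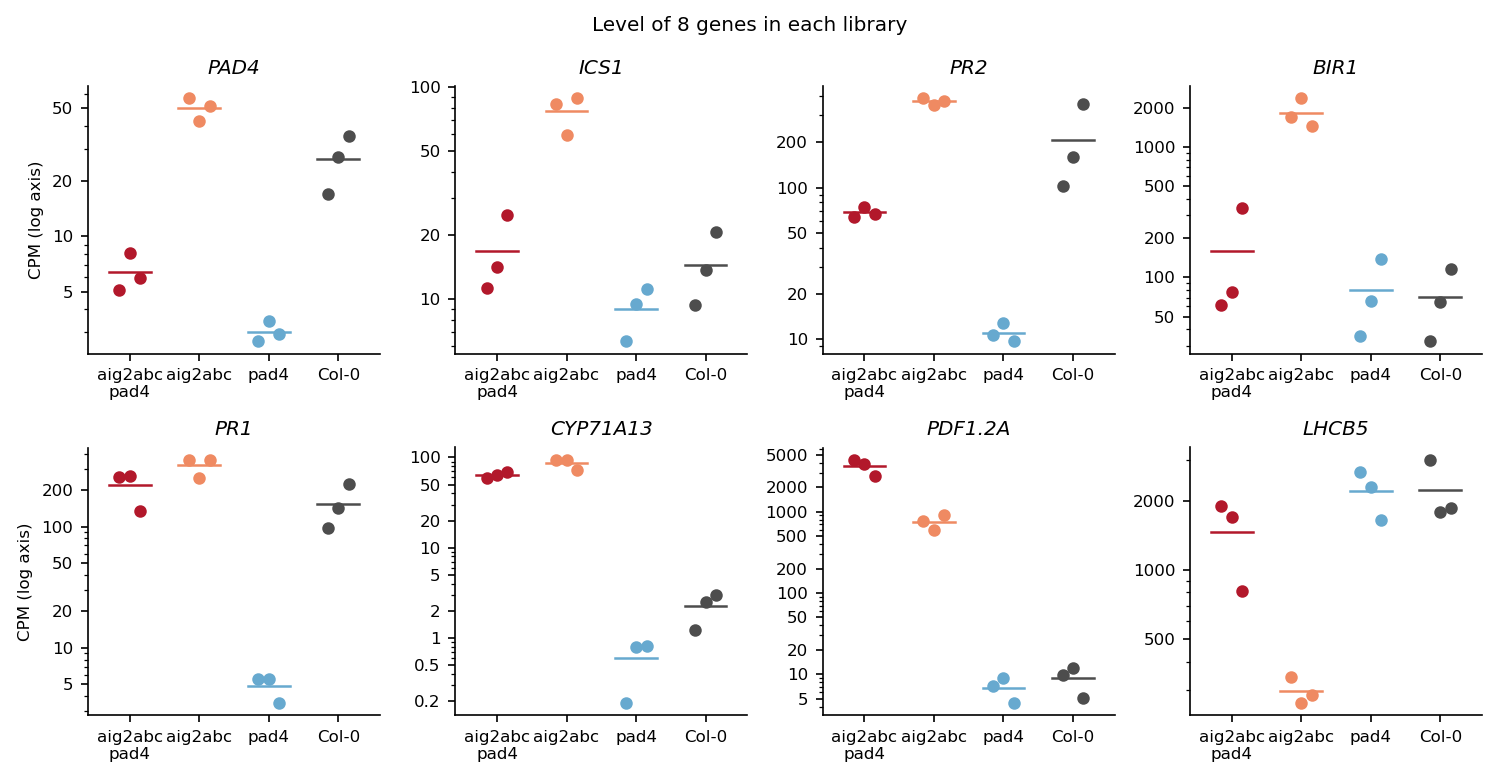
Level of 8 genes in each library in CPM on a log axis, with groups from left to right aig2abc pad4, aig2abc, pad4 and Col-0, points for libraries and lines for group means (n = 3). PAD4, ICS1, PR2 and BIR1 are lower in aig2abc pad4 than in aig2abc without overlap, PDF1.2A and LHCB5 are higher without overlap, and PR1 overlaps between these groups and lies far lower in pad4, at 3.51 to 5.54 CPM. BIR1 was named by a rule that required no overlap.

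BIR1, a receptor-like kinase that restrains cell death and immunity, was at 61.1, 76.6 and 337 CPM in aig2abc pad4, against 1681, 2364 and 1451 CPM in aig2abc. The group means differed 11.6-fold on the fitted scale, a log2 change of -3.53 ± 0.64 (edgeR adjusted p = 0.00269). Replicate 3 of aig2abc pad4 was the highest of its group, and BIR1 kept its call with a change of -1.63 in the axis-adjusted fit. Col-0 and pad4 lay far below aig2abc for this gene, at 35.4 to 138 CPM in pad4 and 32.3 to 115 CPM in Col-0.

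DOX1, an alpha-dioxygenase that makes oxylipins, had 1.73, 1.81 and 3.95 CPM in aig2abc pad4 and 38.9, 23.2 and 27.2 CPM in aig2abc. The log2 change was -3.64 ± 0.40 (edgeR adjusted p = 0.00031), and it was -2.69 and called in the axis-adjusted fit. DOX1 and BIR1 were named by a rule that required no overlap between the groups, so the lack of overlap is no support. AIG1, a GTPase-like gene named with the AIG2 family for its induction by avirulence, had 1.92, 1.96 and 0.658 CPM in aig2abc pad4, against 14.5, 23.2 and 16.7 CPM in aig2abc, a log2 change of -3.46 ± 0.50 (edgeR adjusted p = 0.00117), and its call held under the 16 settings that tested it. WRKY60, a relative of WRKY18, averaged 5.04 ± 3.05 CPM in aig2abc pad4 and 38.8 ± 8.4 CPM in aig2abc (SD, n = 3 each) and was called in both fits, at -2.92 and, axis-adjusted, -2.21.

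The other large decreases were in genes with no symbol in RefSeq. AT1G10340, annotated as an ankyrin repeat protein, changed by -3.22 ± 0.52 and AT1G25570 by -2.79 ± 0.35, and both kept their calls in the axis-adjusted fit at -1.73 and -1.93. AT3G28510, a P-loop nucleoside triphosphatase, AT2G47850, a zinc finger protein, and AT4G22305, an alpha/beta hydrolase, changed by -3.33, -3.04 and -2.98, and each lost its call in the axis-adjusted fit, at adjusted p of 0.0524, 0.0552 and 0.0526 by edgeR.

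Cysteine-rich receptor-like kinases, a family of plasma membrane kinases many of which respond to pathogens, gave 4 lower and 1 higher of 13 tested, beside 11.5% lower and 12.8% higher over all genes, with a median log2 change of -0.79. CRK37, CRK45, CRK6 and CRK4 changed by -3.48, -2.83, -2.25 and -1.97. CRK45 was at 10.2, 14 and 29.8 CPM in aig2abc pad4, against 153, 108 and 119 CPM in aig2abc. These 4 calls held without any 1 of the 6 libraries, and CRK4 alone of them was called in the axis-adjusted fit, at -2.22. CRK21, named after its value was seen, rose by 1.98 and lost its call without aig2abc replicate 1 or aig2abc pad4 replicate 1, at adjusted p of up to 0.0758 by edgeR.

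Of 22 immune receptor and early signalling genes tested, 7 fell and 3 rose, with a median of -0.31. Over all genes 11.5% fell and 12.8% rose, so the share that rose was near that of all genes. The 3 that rose, named after their values were seen, were the receptor gene ADR1-L2 (2.92), the kinase MPK3 (1.55) and the chitin receptor kinase CERK1 (0.74), and 5 of the 6 omissions of 1 library ended each of these calls, at adjusted p of up to 0.159 by edgeR. RIN4, a membrane protein guarded by immune receptors, had 17.7, 18.1 and 32.9 CPM in aig2abc pad4, against 49.7, 86.8 and 62.4 CPM in aig2abc, a log2 change of -1.50 ± 0.35 (edgeR adjusted p = 0.00775). NDR1, needed for signalling by one class of receptors, changed by -1.38, the kinase MKK5 by -1.0 and the co-receptor BAK1 by -1.3. Each of these calls was lost without at least 1 library: RIN4 was lost without aig2abc pad4 replicate 2 (edgeR adjusted p = 0.05003), NDR1 without its replicate 1, MKK5 without aig2abc replicate 3 or aig2abc pad4 replicate 1 or 2, and BAK1 without aig2abc replicate 1 or 3 or aig2abc pad4 replicate 1 or 2. BAK1 was at -1.95 without aig2abc pad4 replicate 3. None of the 10 list calls held in the axis-adjusted fit.

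Protein folding genes of the endoplasmic reticulum, which secreted defence proteins pass through, gave 4 lower and 0 higher of 15 tested (all genes: 11.5% lower, 12.8% higher), with a median of -0.66. ERDJ3B, a chaperone helper needed for some immune receptors, had 28, 30.6 and 44.6 CPM in aig2abc pad4, against 104, 124 and 114 CPM in aig2abc, a log2 change of -1.72 ± 0.29 (edgeR adjusted p = 0.00195). The disulfide isomerase PDIL1-3 changed by -1.39, the calreticulin CRT1A by -1.3 and the calnexin CNX1 by -1.29. ERDJ3B and PDIL1-3 were also called in the axis-adjusted fit, at -1.03 and -1.56. PDIL1-3 lost its call when every library was thinned to the smallest total (edgeR adjusted p = 0.157). CRT1A was lost without aig2abc pad4 replicate 2 and CNX1 without its replicate 1 or 2, at adjusted p of up to 0.0655 by edgeR. Of 6 cytosolic heat shock chaperones tested, HSP90.1 fell by 2.40 ± 0.51 on the log2 scale, at 28.1 ± 20 CPM in aig2abc pad4 and 149 ± 21.2 CPM in aig2abc (SD, n = 3 each; edgeR adjusted p = 0.00524), and was not called in the axis-adjusted fit.

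Defensin genes, which encode small antifungal proteins and respond to jasmonate with ethylene, were higher in aig2abc pad4. On the list of defensins and their regulators 6 of 14 rose and 3 fell, against 12.8% and 11.5% of all genes, with a median log2 change of 0.52, and the number that rose was 6 without each of the 6 libraries in turn. The summed level of the list was 5424 to 11002 CPM in aig2abc pad4 and 1611 to 2183 CPM in aig2abc, against 59 to 77.3 CPM in pad4 and 72.9 to 112 CPM in Col-0. The axis-adjusted fit called 3 higher and 0 lower.

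PDF1.2A, the usual marker of this response, was at 4375, 3899 and 2731 CPM in aig2abc pad4, against 759.6, 591 and 907 CPM in aig2abc. The lowest aig2abc pad4 library was above the highest aig2abc library, and the log2 change was 2.28 ± 0.33 (edgeR adjusted p = 0.00117) and 1.66 in the axis-adjusted fit. PDF1.3 was at 1730.2, 1219.8 and 370.2 CPM in aig2abc pad4, against 72.7, 67.5 and 111 CPM in aig2abc, with replicate 3 the lowest of its group. Its log2 change was 3.70 ± 0.47 (edgeR adjusted p = 0.00078), and it kept its call in the axis-adjusted fit at 1.62.

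PDF1.2C, at 3198 ± 1289 CPM in aig2abc pad4 and 592 ± 95.1 CPM in aig2abc (SD, n = 3 each), rose by 2.43 and stayed called in the axis-adjusted fit at 1.3. PDF1.2B rose by 3.90, at 44.7, 43.4 and 12.8 CPM in aig2abc pad4 and 3.71, 1.93 and 0.985 CPM in aig2abc, and missed the threshold in the axis-adjusted fit (2.02, edgeR adjusted p = 0.0564). The separate values of these copies are uncertain, because near-identical sequences may share reads. The list also held PDF1.1 and PR4, an endochitinase-like protein, higher by 1.68 and 1.98, and 3 members that fell, all named after their values were seen: the thionin THI2.1 (-2.26), the chitinase CHIB (-1.49) and the ethylene response factor ERF2 (-0.80). The calls of ERF2 and CHIB were lost without aig2abc replicate 1, among others, at adjusted p of up to 0.215 by edgeR. ORA59, the transcription factor that activates PDF1.2 genes, was at 95.2, 107 and 126 CPM in aig2abc pad4, against 97.5, 122 and 108 CPM in aig2abc. These values overlapped, and the log2 change was 0.01 ± 0.27 (edgeR adjusted p = 0.982).

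Genes of jasmonate synthesis and its repressors moved both ways, with 4 higher and 6 lower of 21 tested, where all genes gave 12.8% higher and 11.5% lower. The lipoxygenase LOX2, which starts jasmonate synthesis in chloroplasts, was at 355, 364 and 102 CPM in aig2abc pad4, against 49.3, 71.4 and 63 CPM in aig2abc, a rise of 2.18 ± 0.42 (edgeR adjusted p = 0.00364). JAZ6, a repressor of jasmonate responses, rose by 2.77, while the cyclase AOC3 changed by -1.51. VSP1, a vegetative storage protein of the wound branch of the pathway, changed by -2.15 and lost its call without aig2abc replicate 3 (-1.53, edgeR adjusted p = 0.0572). In the axis-adjusted fit 1 member was called, MYC2, the activator of the wound branch, which averaged 20.4 ± 1.9 CPM in aig2abc pad4 and 43.4 ± 14.9 CPM in aig2abc (SD, n = 3 each) and was named after its value was seen. Without that covariate its change of -1.11 lost its call without aig2abc replicate 3 or aig2abc pad4 replicate 1 or 2, at adjusted p of up to 0.142 by edgeR. The number of lower members was 1 without aig2abc replicate 3.

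Camalexin synthesis makes the main indole phytoalexin of Arabidopsis. The 2 genes of this pathway that were named for their known role in it did not pass the test. CYP71A13, which makes the nitrile intermediate, was at 58.9, 63.7 and 69.9 CPM in aig2abc pad4, against 93.1, 94.6 and 73.2 CPM in aig2abc, a log2 change of -0.43 ± 0.30 (edgeR adjusted p = 0.299) although the groups did not overlap. PAD3, the final enzyme, was at 10.9, 15.2 and 7.56 CPM in aig2abc pad4, against 8.16, 7.72 and 8.86 CPM in aig2abc, a log2 change of 0.42 ± 0.42 (edgeR adjusted p = 0.473). In plants without aig2abc the levels were at most 0.819 CPM for CYP71A13 and 0.234 CPM for PAD3 in pad4, and 2.99 CPM and 0.799 CPM in Col-0.

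Over the camalexin list 3 of 13 rose and 2 fell, with a median of 0.09, and over all genes 12.8% rose and 11.5% fell. AAO1, an aldehyde oxidase, had 35.7, 40.8 and 114 CPM in aig2abc pad4, against 346, 243 and 213 CPM in aig2abc, a log2 change of -2.08 ± 0.40 (edgeR adjusted p = 0.00379). The other member that fell was MYB122, named after its value was seen, at -1.95. Its call was lost without aig2abc replicate 1 or 3 or aig2abc pad4 replicate 1 or 2, at adjusted p of up to 0.195 by edgeR. CYP79B3, GSTF6 and GGT1 rose by 1.73, 1.27 and 2.21, but 3, 4 and 4 of the 6 omissions of 1 library ended these calls, at adjusted p of up to 0.133 by edgeR. GGT1 was at 3.69 without aig2abc replicate 3. Without aig2abc pad4 replicate 1 no camalexin gene was called higher, and the axis-adjusted fit called 0 in either direction.

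Glucosinolates are the sulfur-rich defence compounds of the cabbage family. Indole glucosinolate genes gave 3 higher and 4 lower of 22 tested, and aliphatic ones 2 higher and 5 lower of 23. With 12.8% of all genes higher and 11.5% lower, the counts that rose are near those shares. GSTF10, of the indole branch, had 1753, 1952 and 1451 CPM in aig2abc pad4, against 863, 536 and 867 CPM in aig2abc, a rise of 1.18 ± 0.25 (edgeR adjusted p = 0.00544) that was 0.74 and not called in the axis-adjusted fit (adjusted p = 0.139). MYB51, the activator of that branch, changed by -1.15 and the glucosyltransferase UGT74B1 by -1.18, calls that 5 and 3 of the 6 omissions of 1 library ended, at adjusted p of up to 0.13 by edgeR. The axis-adjusted fit called 1 indole gene higher, IGMT4, a methyltransferase gene named after its value was seen, and none of those called without the covariate.

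In the aliphatic branch the sulfotransferase SOT17 had 31.5, 39.6 and 88.5 CPM in aig2abc pad4, against 250.2, 239 and 207 CPM in aig2abc, a log2 change of -2.13 ± 0.38 (edgeR adjusted p = 0.00267) and -0.98 in the axis-adjusted fit, where it was still called. CYP83A1, which oxidises the aldoximes of this branch, changed by -1.48, and by -0.87 in the axis-adjusted fit, where it was not called (edgeR adjusted p = 0.101). AOP2 changed by -1.59 and GSTF11 by 1.15, and 3 and 4 of the 6 omissions ended these calls, at adjusted p of up to 0.123 by edgeR. TGG1, a myrosinase that breaks glucosinolates down, had 244, 212 and 34.5 CPM in aig2abc pad4, against 11.1, 23.2 and 16.1 CPM in aig2abc, a rise of 3.40 ± 0.70 (edgeR adjusted p = 0.00463) that was 0.76 and not called in the axis-adjusted fit.

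Glutathione transferases and other detoxification genes gave 2 higher and 4 lower of 18, beside 12.8% and 11.5% of all genes, with a median of -0.19 that was 0.04 with total-count scaling. GSTF2 was at 2002, 2025 and 3784 CPM in aig2abc pad4, against 6967, 7212 and 7229 CPM in aig2abc, a log2 change of -1.45 ± 0.32 (edgeR adjusted p = 0.00579). GSTF8 changed by -1.44, and OPR1, a reductase of reactive oxylipins, by 1.39. GSTU10 changed by -1.77, a call that 4 of the 6 omissions of 1 library ended. None was called in the axis-adjusted fit. In tryptophan synthesis PAI2 alone of 11 genes was called, at -1.25, and 4 of the 6 omissions ended that call, at adjusted p of up to 0.131 by edgeR. GGCT2;2, which degrades glutathione and shares a fold with AIG2 proteins, averaged 32.2 ± 29.1 CPM in aig2abc pad4 and 222 ± 99.1 CPM in aig2abc (SD, n = 3 each), a log2 change of -2.77 ± 0.58 (edgeR adjusted p = 0.00495) and of -1.08, not called, in the axis-adjusted fit.

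**Figure D3:**
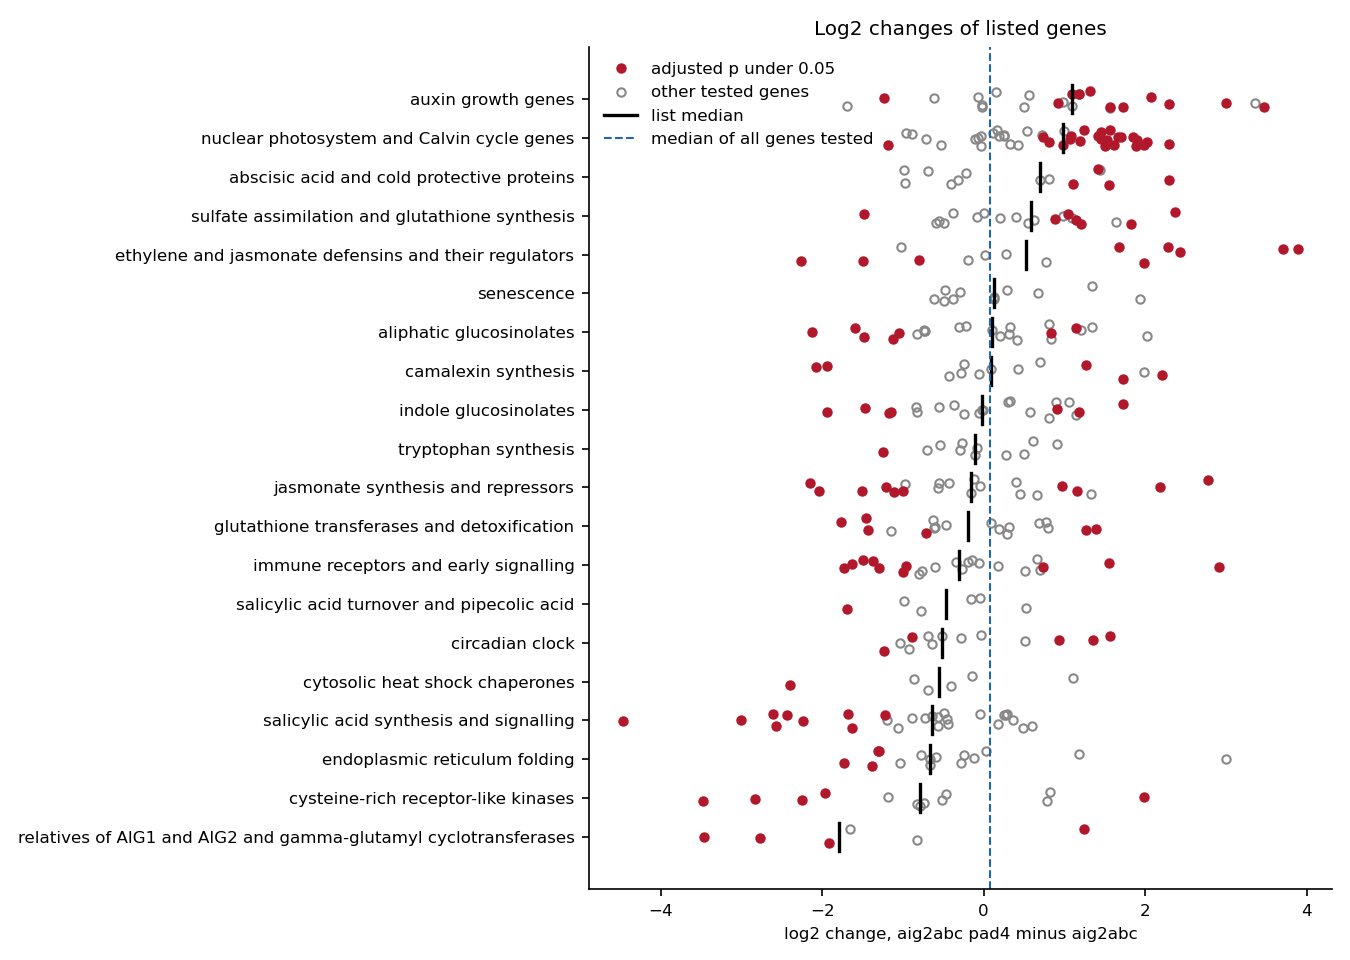
Log2 change in aig2abc pad4 minus aig2abc for each tested gene of 20 lists, one list per line, sorted by list median (black bars). Filled points passed adjusted p under 0.05, open points did not, and the dashed line is the median of all genes tested, 0.08. The auxin growth, photosynthesis and cold lists have medians of 0.69 to 1.1, and the salicylic acid, folding, receptor-like kinase and AIG lists have medians of -0.64 to -1.79.

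Photosynthesis genes encoded in the nucleus were higher in aig2abc pad4. Of 41 photosystem and Calvin cycle genes tested, 22 rose and 1 fell, against 12.8% of all genes that rose and 11.5% that fell, with a median log2 change of 0.98. Leaving out a library gave 17 to 23 higher, and the axis-adjusted fit gave 8 higher and 0 lower with a median of 0.70. Of the 6 mesophyll markers given above 2 rose, among them LHCB1.3, and the median of the 6 was 0.04. LHCB1.3, LHCB2.1 and RBCS1A are both among these markers and on this list, so the 2 medians are not independent. The part of the mesophyll markers in the result was not tested. LHCB5, an antenna protein of photosystem II, was at 1890.0, 1693 and 810.1 CPM in aig2abc pad4, against 341, 264 and 285 CPM in aig2abc, a rise of 2.30 ± 0.33 (edgeR adjusted p = 0.00117). PSAN, a subunit of photosystem I, had 1411, 1501 and 1306 CPM in aig2abc pad4, against 427, 357 and 384 CPM in aig2abc, a rise of 1.85 ± 0.24 (edgeR adjusted p = 0.00107). PSAO and the antenna gene LHCB1.3 rose by 1.67 and 1.89. These 4 genes were called in the axis-adjusted fit too, at 1.18, 1.49, 1.61 and 1.19. LHCB5 was at 1651 to 2666 CPM in pad4 and 1781 to 3021 CPM in Col-0, ranges that overlap that of aig2abc pad4. The summed level of the whole list did not reach theirs. It was 141670 to 188800 CPM in aig2abc pad4, against 196500 to 276860 CPM in pad4 and 193320 to 243780 CPM in Col-0. In aig2abc it was 115790 to 142970 CPM, which overlaps the range of aig2abc pad4. The 1 member that fell was PSAH2, named after its value was seen, at -1.18, a call that 4 of the 6 omissions of 1 library ended. LHCB1 and small Rubisco subunit genes have near-identical copies, so the split of reads among them is uncertain.

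Genes for cold and dehydration protective proteins gave 4 higher and 0 lower of 13, against 12.8% and 11.5% of all genes, with a median of 0.69. COR15A, which protects chloroplast membranes in the cold, had 88.3, 78.8 and 45.4 CPM in aig2abc pad4, against 14.5, 13.5 and 14.8 CPM in aig2abc, a rise of 2.30 ± 0.37 (edgeR adjusted p = 0.00163). COR15B, ERD14 and COR47 rose by 1.55, 1.41 and 1.1. COR47 was lost without aig2abc replicate 3 or aig2abc pad4 replicate 1, at adjusted p of up to 0.0544 by edgeR, and of the 4 named genes COR15A was called in the axis-adjusted fit, at 1.24.

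Auxin growth genes, a list of SAUR, IAA, expansin and xyloglucan endotransglucosylase genes, gave 10 higher and 1 lower of 24. Over all genes 12.8% were higher and 11.5% lower, and the median log2 change of the list was 1.1. The expansin EXPA8 had 64.7, 64.8 and 31.4 CPM in aig2abc pad4, against 7.04, 11.6 and 14.4 CPM in aig2abc, a rise of 2.29 ± 0.46 (edgeR adjusted p = 0.00403). XTH22, with 227 counts over the aig2abc pad4 libraries and 7 over the aig2abc libraries, rose by 3.00, and IAA2 by 1.32. SAUR21 had 127 counts over the aig2abc pad4 libraries and 3 over the aig2abc libraries. Scaled to library sizes with TMM factors, this is a level 11.5 times higher (exact 95% counting interval 3.84 to 56.4). SAUR21 lost its call without aig2abc replicate 3 (edgeR adjusted p = 0.0551). In the axis-adjusted fit the median of this list was 0.08 and 1 gene was called, which was none of these 4. The number that rose was 4 without aig2abc replicate 3.

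Among the other large increases, replicate 3 of aig2abc pad4 was the lowest library of its group for each gene named here. AT3G15356, a legume lectin family gene, had 2017, 1745 and 377 CPM in aig2abc pad4, against 84.5, 46.3 and 85.4 CPM in aig2abc. Its rise of 4.22 ± 0.66 (edgeR adjusted p = 0.00158) was 1.49 and still called in the axis-adjusted fit. DIN11, a gene induced in the dark, had 114, 121 and 21.4 CPM in aig2abc pad4, against 4.45, 3.86 and 15.8 CPM in aig2abc, a rise of 3.21 that was 0.37 and not called in the axis-adjusted fit. The antenna gene LHCB2.3, the thaumatin family gene AT1G75800 and AT5G48335 rose by 3.25, 3.41 and 3.26, and each was at 0.90 to 1.4 and not called in the axis-adjusted fit. AT3G08520, a ribosomal protein gene, rose by 3.44 and AT5G21940 by 3.27. The calls of both were lost without aig2abc pad4 replicate 1, at adjusted p of 0.0668 and 0.0682 by edgeR, and in the axis-adjusted fit they stood at 0.32 and -0.02.

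Fewer genes passed the test for the pad4 mutation in plants without aig2abc. Set against Col-0, pad4 had 1 gene higher (0.00663%) and 103 lower (0.683%) of 15082, and these 104 genes were 67 without pad4 replicate 3. The gap was far smaller in the axis-adjusted fit. There pad4 against Col-0 gave 23 higher and 217 lower, beside 197 and 128 for aig2abc pad4 against aig2abc. The comparison of pad4 and Col-0 shares no library with that of aig2abc pad4 and aig2abc. Of the 103 genes lower in pad4 than in Col-0, 48 (46.6%) were also lower in aig2abc pad4 than in aig2abc, against 11.5% of all genes, 3 were higher and 52 were not called. Their median log2 change in aig2abc pad4 was -0.83, against 0.08 over all genes, and 79 were below 0. The interaction described below was called above 0 for 57 of the 103 genes and below 0 for 0, which is a description, since it contains the contrast that chose them. Over all 15082 genes the log2 changes of the 2 comparisons had a Pearson correlation of -0.147 and a Spearman correlation of -0.29, given as a description across genes, which are not independent replicates. The 48 genes that were lower in both comparisons included PAD4, PR2, DMR6, AIG1, CRK4, CRK6, CRK37 and CRK45.

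**Figure D4:**
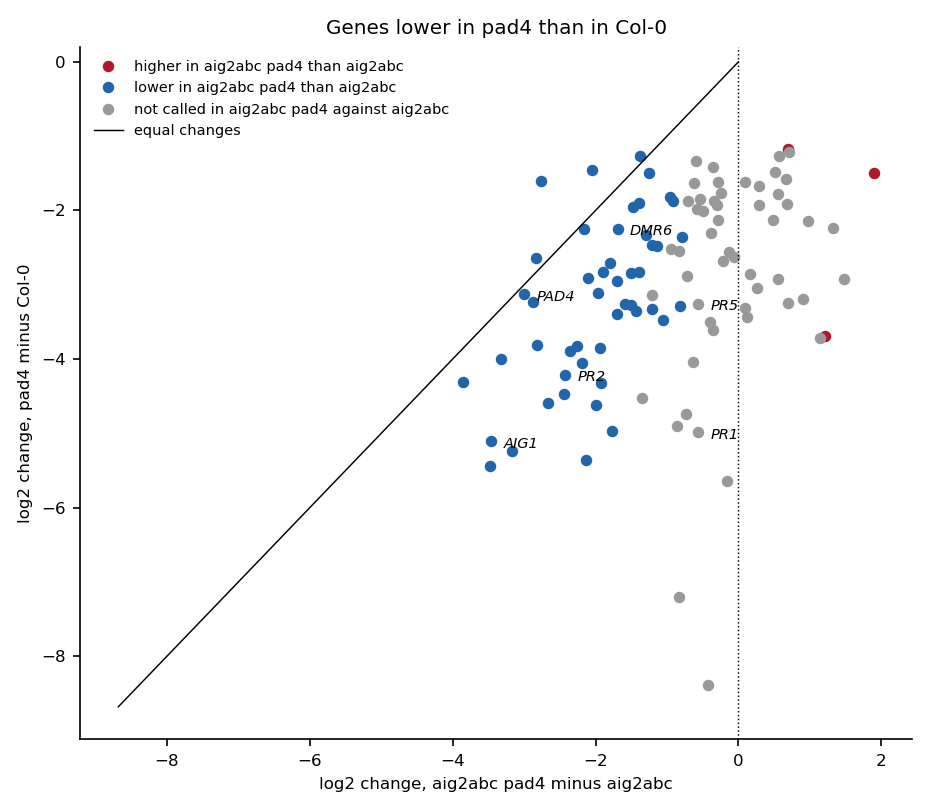
Log2 change in aig2abc pad4 minus aig2abc (horizontal axis) and in pad4 minus Col-0 (vertical axis) for the 103 genes lower in pad4 than in Col-0, coloured by their call in the first of these comparisons. The 48 genes also lower in aig2abc pad4 lie on the left of 0, and PR1 and PR5 are among the 52 genes not called.

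Whether the effect of pad4 differed with and without aig2abc was tested as an interaction, the change in aig2abc pad4 minus aig2abc less the change in pad4 minus Col-0. It was above 0 for 1287 genes (8.53%) and below 0 for 940 (6.23%) by edgeR's quasi-likelihood test, and these were 72 and 14 in the axis-adjusted fit. The total of 2227 genes moved with single libraries, to 612, 429 and 4588 without aig2abc pad4 replicate 1, 2 and 3, to 729, 602 and 722 without aig2abc replicate 1, 2 and 3, to 1075 and 449 without pad4 replicate 2 and 3, and to 946 without Col-0 replicate 1. PR1 gave 4.43 ± 0.49 (edgeR adjusted p = 0.000408), with 5.54, 5.52 and 3.51 CPM in pad4 and 98.1, 142 and 224 CPM in Col-0, a log2 change of -4.99 where aig2abc pad4 against aig2abc gave -0.56. It stayed called in the axis-adjusted fit at 4.12. For PAD4 itself the log2 changes were -3.0 with aig2abc and -3.13 without it, and the interaction was 0.13 ± 0.41 (edgeR adjusted p = 0.849).

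Further genes with the smallest interaction p were AT3G18250, AT3G22600, AT1G25570 and AT2G43590. For AT1G25570, lower in aig2abc pad4 as given above, the interaction was below 0, at -3.77 (edgeR adjusted p = 0.00172). It was -2.69 and called in the axis-adjusted fit. AT3G18250, an uncharacterised gene, had 84.6, 92.2 and 44.1 CPM in aig2abc pad4, against 34.8, 23.2 and 34.1 CPM in aig2abc, while it had 3.73, 3.1 and 1.64 CPM in pad4 and 53, 29.3 and 28.8 CPM in Col-0. Its rise of 1.21 in aig2abc pad4 was lost in 4 of the 6 omissions of 1 library, at adjusted p of up to 0.0733 by edgeR, and was 0.06 in the axis-adjusted fit (adjusted p = 0.96), while its interaction was 4.91. AT3G22600, a lipid transfer protein gene, averaged 45.3 ± 14.9 CPM in aig2abc pad4 and 23 ± 6.89 CPM in aig2abc (SD, n = 3 each; edgeR adjusted p = 0.0689), and was called higher without aig2abc pad4 replicate 3 (1.14, adjusted p = 0.0119). The chitinase gene AT2G43590 had 1189, 1148 and 726 CPM in aig2abc pad4, against 333, 181 and 299 CPM in aig2abc, a rise of 1.90 ± 0.31 (edgeR adjusted p = 0.00163) that was 1.25 and called in the axis-adjusted fit, while it was at 3.63 to 6.2 CPM in pad4 and 9.98 to 17.9 CPM in Col-0.

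Of the 93 named genes tested, 84 were called, 61 of them without any 1 of the 6 libraries, and 25 of these also in the axis-adjusted fit. Over all genes 24.3% were called. The count of 84 is no result, since many of these genes were named because they were called. Those 25 were PAD4, ICS1, SARD1, PR2, AIG1, DOX1, BIR1, WRKY60, CRK4, AT1G10340, AT1G25570, SOT17, ERDJ3B and PDIL1-3, all lower in aig2abc pad4, and AIG2A, PDF1.2A, PDF1.2C, PDF1.3, PSAN, PSAO, LHCB5, LHCB1.3, COR15A, AT3G15356 and AT2G43590, all higher. Of the 25, PDIL1-3 was not called with thinned libraries.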

How the data were processed

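The authors deposited a table of raw read counts per gene for all 12 libraries. Per the submitters' processing notes, reads were processed with STAR and edgeR against TAIR10; no version or setting is stated there. The table listed 33331 genes, of which 11272 had no count. Symbols came from RefSeq, which matched 28932 of the identifiers. The labels do not give the loci of AIG2A, AIG2B and AIG2C. These were assumed to be AT3G28930, AT3G28940 and AT3G28950. The counting of reads shared by related genes or antisense pairs is not given in the sources used here. One pad4 column carries a replicate number that no sample title has and was used as a replicate of the pad4 group, tied to no one sample. Members and gene lists were chosen with earlier results of these data known.

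From the counts, genes passing edgeR's filterByExpr were fitted with TMM factors and robust quasi-likelihood dispersions (R 4.3.3, edgeR 4.0.16, limma 3.58.1, DESeq2 1.42.0) as 4 genotype means over the 12 libraries. The comparison and the interaction are contrasts of that fit, and the spread is thus shared by all 4 genotypes. Benjamini-Hochberg adjustment ran over 15082 genes at 0.05, and SE is the log2 change over the root of F. The biological coefficient of variation was 28.7%. The procedure was also run on simulated data, whose outcome is not given here and is no support for the calls. The depth sets a floor of 3 counts, which is 0.13 CPM over the aig2abc pad4 libraries and 0.479 CPM over the aig2abc libraries; it and the exact 95% intervals cover counting error only.

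The text names PAD4, the AIG2 genes, a set panel of immunity genes, for each list the called genes with the smallest p (at most 4), the 10 largest changes in each direction with a mean of at least 3 log2 CPM and no overlap, and the 5 smallest interaction p at that level. Alternatives were RLE factors, other filters, DESeq2, limma-voom, a minimum fold of 2, thinning, a replicate block, the replicate-axis covariate and omission of each library; total-count scaling and the omission of 2 libraries together were chosen after seeing the data. No sequences are shown.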

Additional observations from a re-analysis of the deposited data

Results flagged for a closer look

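The interaction term of edgeR's quasi-likelihood fit was called at adjusted p under 0.05 for 61 of the 93 named genes tested, against 14.8% of all genes. This count is a description. Many of these genes were named for a call in aig2abc pad4 against aig2abc, which is part of the interaction, and 5 for the smallest interaction p. Values below are log2 differences, the change in aig2abc pad4 minus aig2abc less the change in pad4 minus Col-0. They were above 0 for 39 genes and below 0 for 22. For 12 genes the interaction was also called with the replicate-axis covariate. These were AT3G15356 (5.07), AT3G18250 (4.91), PR1 (4.43), AT3G22600 (4.1), AT2G43590 (3.39), PDF1.2A (2.66), LHCB1.3 (2.31), PSAN (1.95), PR2 (1.78), PSAO (1.72) and AIG2A (1.68) above 0 and AT1G25570 (-3.77) below 0. The values in brackets are without the covariate. With it, those above 0 ranged from 1.46 for LHCB1.3 to 4.12 for PR1, with AT3G15356 at 1.71, and AT1G25570 was at -2.69.

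The other genes lost the call with that covariate. Those above 3 were DIN11 (5.07), PDF1.3 (4.64), AT3G08520 (4.34), AT5G21940 (4.32), AT1G75800 (4.22), AT5G48335 (3.89), SAUR21 (3.41), XTH22 (3.38), PAD3 (3.34), TGG1 (3.32), JAZ6 (3.25) and LHCB2.3 (3.2). Those between 2 and 3 were EXPA8 (2.83), PDF1.2C (2.78), PR5 (2.69), GSTF6 (2.66), LHCB5 (2.31), COR15A (2.23), APS3 (2.23), LSU1 (2.2), LOX2 (2.17), CYP79B3 (2.14) and ERD14 (2.08). The smallest positive values were GSTF10 (1.70), COR15B (1.70), ZTL (1.68), OPR1 (1.5) and COR47 (1.28). Those below 0 began with GGCT2;2 (-3.71), BIR1 (-3.70), AT4G22305 (-3.58), AT2G47850 (-3.35), VSP1 (-2.73), SOT17 (-2.43), AIG2B (-2.28), WRKY60 (-1.99), CYP83A1 (-1.96) and RIN4 (-1.92). The rest were AAO1 (-1.87), APR1 (-1.84), PAI2 (-1.82), BAK1 (-1.66), UGT74B1 (-1.53), ICS1 (-1.53), ERDJ3B (-1.44), AOC3 (-1.43), CRT1A (-1.38), GSTF8 (-1.37) and CNX1 (-1.30). The part of the replicate axis and of sequencing depth in these differences was not tested beyond the covariate and the thinning.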

How the results depend on the processing

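The main fit gave 1924 higher and 1737 lower genes in aig2abc pad4 than in aig2abc. With limma-voom 1091 were higher and 1805 lower, and a minimum fold of 2 left 47 and 43. Thinning gave 1117 and 1040, the replicate-axis covariate 197 and 128, and omission of 1 library 921 to 2794 higher and 455 to 2709 lower. The interaction, 2227 genes, gave 11 with the minimum fold, 1230 thinned, 86 with the covariate, 4014 without aig2abc replicate 2 and aig2abc pad4 replicate 3 together (chosen after seeing the data), and 429 to 4588 without 1 library. The pad4 against Col-0 comparison, 104 genes, gave 158 with DESeq2, 56 with the minimum fold, 29 thinned, 240 with the covariate and 67 to 106 without 1 library. Replicate numbers did not pair the samples (correlations of -0.0176, -0.0623 and -0.146, no number best matched to itself); a replicate block gave 2314 higher, 2280 lower and 3662 interaction calls. Of 1564 values of named genes, 1410 kept direction and call, 139 lost the call, 8 gained it and 7 turned sign. With the covariate WRKY70 was -0.43, PAD3 -0.19, CYP71A13 0.14, AT5G21940 -0.0217 and AT3G22600 -0.0559; ORA59 was -0.0905 without aig2abc pad4 replicate 3, up to 0.197 without another library, and -0.0229 without the pair. The cause was not tested. Depth limits genes near 0.479 CPM over the pooled aig2abc libraries. It limits single values of aig2abc replicate 2 at a higher level, since 1 count there is 1.93 CPM.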

Other observations

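Sulfate assimilation genes, which supply sulfur for glutathione and glucosinolates, gave 6 higher and 1 lower of 20 tested in aig2abc pad4 against aig2abc, where 12.8% and 11.5% of all genes were higher and lower, with a median log2 change of 0.58. The sulfurylase APS3 rose by 2.37 and LSU1, a gene induced by sulfur shortage, by 1.82. The reductase APR2 had 97.2, 107 and 88.5 CPM in aig2abc pad4 and 47.5, 32.8 and 48.6 CPM in aig2abc, a rise of 1.14 ± 0.24 (edgeR adjusted p = 0.00502). Its relative APR1 changed the other way, at 51.2, 74.9 and 115 CPM in aig2abc pad4 and 220.2, 261 and 197 CPM in aig2abc, a log2 change of -1.49 ± 0.30 (edgeR adjusted p = 0.00416). No gene of the list was called with the replicate-axis covariate, and the number that rose was 3 without aig2abc replicate 3.

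Circadian clock genes gave 3 higher and 2 lower of 13, beside 12.8% and 11.5% of all genes. Their median log2 change was -0.52, and -0.20 with the covariate, with which none was called. CCA1, a morning transcription factor, averaged 17.2 ± 3.97 CPM in aig2abc pad4 and 6.97 ± 0.712 CPM in aig2abc (SD, n = 3 each), a rise of 1.35 (edgeR adjusted p = 0.00549). The clock F-box protein gene ZTL rose by 1.56. PRR5 and TOC1, which act later in the day, changed by -1.24 and -0.89. The PRR5 call was lost without aig2abc replicate 1 or aig2abc pad4 replicate 2, and that of TOC1 without aig2abc replicate 1 or aig2abc pad4 replicate 1 or 2, at adjusted p of up to 0.127 by edgeR. Phloem and vascular markers summed to 25.3 to 41.7 CPM in aig2abc pad4 and 22 to 27.1 CPM in aig2abc.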
